A study of Mus musculus with 6 samples.

Results

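The 10 genes described here encode 6 S100 proteins (*S100a1*, *S100a4*, *S100a6*, *S100a10*, *S100a11* and *S100a13*) and 4 annexins (*Anxa1*, *Anxa2*, *Anxa5* and *Anxa6*). They were chosen by gene symbol, with earlier results of these data known. Each was listed once among the 26216 gene names of the files. All lay in the upper 50% of names by mean level, which were tested. RNA was sequenced from LT/ST-HSCs, the CD150+ CD48- fraction of lineage-negative, sca1+ c-kit+ bone marrow cells that holds long-term and short-term hematopoietic stem cells. The comparison asks which genes differ in these cells when the lymphotoxin-β receptor is missing. *Ltbr*-/- (CD45.2) and wild-type Ly5.1 (CD45.1) LSKs, which are stem and progenitor cells, had been mixed and given to Ly5.1/Ly5.2 recipients after lethal irradiation, so that cells of both genotypes came through transplantation in the same recipients. They were sorted in week 6 after this first transplantation from 6 chimeras, and the cells were pooled to 3 biological replicates of each genotype. The *Ltbr*-/- donors were 13 weeks old for replicate 1, 10 weeks old for replicate 2 and 10 to 13 weeks old for replicate 3, and the Ly5.1 donors were 7 to 13 weeks old. The *Ltbr*-/- mice carry a homozygous deletion within the gene, and the CD45 form follows the genotype, so the effects of these cannot be told apart. The sort also removed cells that bind annexin V, a reagent made from the protein that *Anxa5* encodes. Which recipients went into which pool is not given by the labels, so that p-values measure the spread between these pools only.

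S100 proteins are small calcium-binding proteins with a pair of EF-hand motifs that mostly act as dimers and dock onto target proteins once calcium is bound. Annexins bind negatively charged membrane phospholipids in the presence of calcium and take part in membrane traffic, membrane repair and the anchoring of actin. The families meet in defined complexes: a dimer of S100a10 (p11) binds the N-terminus of annexin A2 at the plasma membrane, and S100a11 binds that of annexin A1. S100a10 is unusual in that its EF-hands no longer bind calcium.

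The deposited expression was taken, from its values, to be a regularized log raised as a power of 2, and is called signal here. A log2 fold change is the mean log2 signal of *Ltbr*-/- minus that of Ly5.1. *Ltbr* itself lay between 23.1 and 26.4 in the *Ltbr*-/- samples and between 522 and 564 in the Ly5.1 samples, as the labels require. Of the 10 HSC markers *Kit* was the highest, at 5179 to 6103 over the 6 samples. *Slamf1* was at 260 to 329 and *Hoxb5*, the lowest of them, at 30.9 to 34.3. *Cd48*, against which the cells were sorted, was at 20.1 to 28.9. Of the B cell markers *Ms4a1* was at most 1.17, but *Cd79a* and *Cd79b* had means of 191 to 319. Of the T and NK cell markers *Cd3e* was at most 0.996, but *Cd3g* was at 15.9 to 17.3 and *Nkg7* at 971 to 1153. Of the 8 neutrophil markers 7 were at 2532 or more in every sample, and *Mmp8* at 65.6 to 75.8. Directions are those on the authors' scaling. Centring each sample on 81 ribosomal protein genes moved the median log2 fold change of all tested genes from −0.01 to −0.89 and all 10 members below 0. By construction this shift is common to all genes. Centring on the median of all tested genes instead left it at −0.01.

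Of the 10 genes, *Anxa2*, *S100a1* and *S100a10* rose in *Ltbr*-/- LT/ST-HSCs by the thresholds of the study's methods (adjusted p below 0.05, fold no smaller than 1.5), but not under that ribosomal protein centring. Of the 3, *Anxa2* alone kept both thresholds in each of the other fits, while *S100a1* and *S100a10* each lost them in 2, which are given with their values. None was called lower (limma). At an unadjusted p under 0.05, 6 of the 10 were higher and 1 lower, against 2060 and 1495 of all 13108 tested genes. Over all 13108 tested genes 2.72% were called higher and 0.061% lower. The 10 lay between percentiles 77.2 and 98.0 of all names by mean level. A fit of only the upper 25% of names by mean gave 338 higher and 4 lower calls, against 356 and 8 over all tested genes. The share called higher was thus above 2.72% among names as high as the members, and the members were not compared with genes matched for level. Without the fold threshold *S100a11* was also higher and *Anxa1* was lower, which makes 4 and 1 of the 10, against 10.6% and 4.18% of all tested genes. The median log2 fold change of the 10 was 0.20, against −0.01 over all tested genes, and 8 of the 10 were above 0. The *Ltbr*-/- samples all lay above the Ly5.1 samples in 6 of the 10 genes and all below in 1, against 17% and 13.5% of all tested genes. The members and the rest of the table share the same 6 samples, so these counts are not independent of one another. The 10 were also chosen with earlier results of these data known, so the shares beside them are no test of the group.

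**Figure D1:**
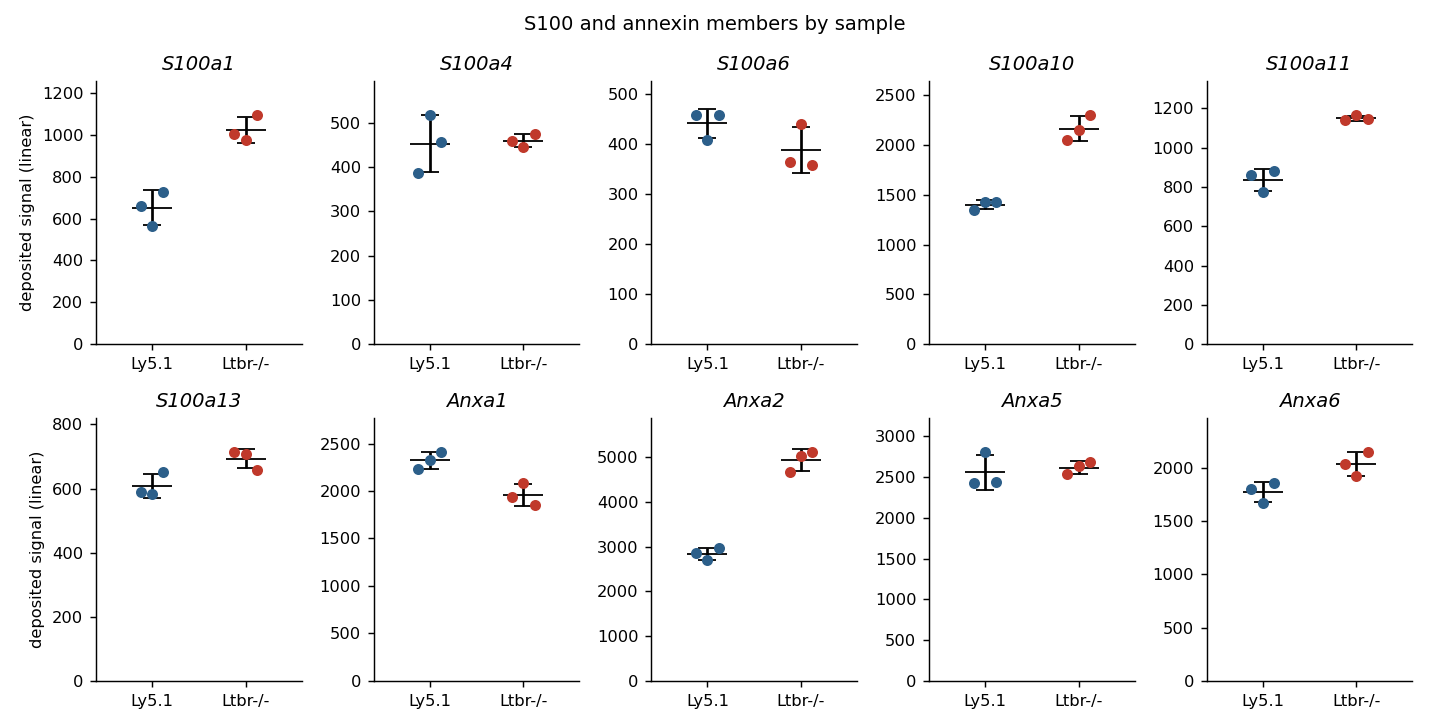
Deposited signal (linear axis from 0) of each of the 10 genes in the 3 Ly5.1 samples (blue) and the 3 Ltbr-/- samples (red), with the mean and SD of each genotype in black. The genotypes are furthest apart in Anxa2, S100a1, S100a10 and S100a11, Anxa1 is lower in Ltbr-/-, and the points of S100a4, S100a6 and Anxa5 overlap.

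*Anxa2* encodes annexin A2, which organizes phospholipid-rich membrane domains and, with S100a10, binds plasminogen and its activator at the cell surface. Its signal was 4663, 5036 and 5117 in the *Ltbr*-/- samples and 2849, 2707 and 2969 in the Ly5.1 samples. The lowest *Ltbr*-/- sample was thus well above the highest Ly5.1 sample. The means were 4939 ± 242 (SD, n = 3) and 2842 ± 131 (SD, n = 3), a 1.74-fold difference with a 95% interval from 1.56 to 1.93. On the log2 scale the difference was 0.80 ± 0.08 (SE; limma adjusted p = 1.14e-10), larger than that of 98.8% of the tested genes. Leaving out single samples gave 0.76 to 0.84, and ribosomal protein centring gave −0.08, which is 0.81 above the median gene under that scaling. *Anxa2* was the only member whose interval lay wholly above the fold of 1.5. Its adjusted p was 0.0253 with a separate variance for each gene (limma).

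*S100a10*, which encodes the partner of annexin A2, moved the same way. Its signal was 2045, 2144 and 2295 in the *Ltbr*-/- samples and 1346, 1426 and 1425 in the Ly5.1 samples, with no overlap. The means were 2162 ± 126 (SD, n = 3) and 1399 ± 45.7 (SD, n = 3). This was a log2 fold change of 0.63 ± 0.08 (SE; limma adjusted p = 2.49e-07), a fold of 1.54 with a 95% interval from 1.37 to 1.73. A separate variance for each gene gave an adjusted p of 0.0265 (limma). The fold lay close to the threshold: without *Ltbr*-/- replicate 3 and under quantile normalization the log2 fold change was 0.58, just short of a fold of 1.5, and under ribosomal protein centring it was −0.25.

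The ratio of *S100a10* to *Anxa2* was compared within samples, together with the ratios of 5 other pairs, all chosen with results of these data known. The log2 ratio was −1.19, −1.23 and −1.16 in the *Ltbr*-/- samples and −1.08, −0.92 and −1.06 in the Ly5.1 samples. The change of *S100a10* was the smaller one in these terms, and the ratios of the genotypes did not overlap. A ratio within a sample does not depend on how samples are centred, but it can change under quantile normalization. There the log2 fold changes were 0.58 for *S100a10* and 0.66 for *Anxa2*, closer to each other. Per length, *S100a10* had 1.46 ± 0.04 (SD, n = 3) times the signal of *Anxa2* in *Ltbr*-/- cells and 1.64 ± 0.10 (SD, n = 3) times in Ly5.1 cells. A two-sided exact permutation test on these log2 ratios gave p = 0.1, which 3 against 3 samples cannot go below, and 0.15 when adjusted over the 6 pairs. The ratio of *S100a11* to *S100a10* overlapped between the genotypes, at −0.91 ± 0.08 and −0.74 ± 0.12 on the log2 scale (SD, n = 3 each, exact permutation p = 0.3, adjusted 0.36). The log2 ratio of *Anxa1* to *Anxa2* was −1.34 ± 0.11 in *Ltbr*-/- and −0.29 ± 0.07 in Ly5.1 cells (SD, n = 3 each, exact permutation p = 0.1, adjusted over the 6 pairs 0.15).

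**Figure D2:**
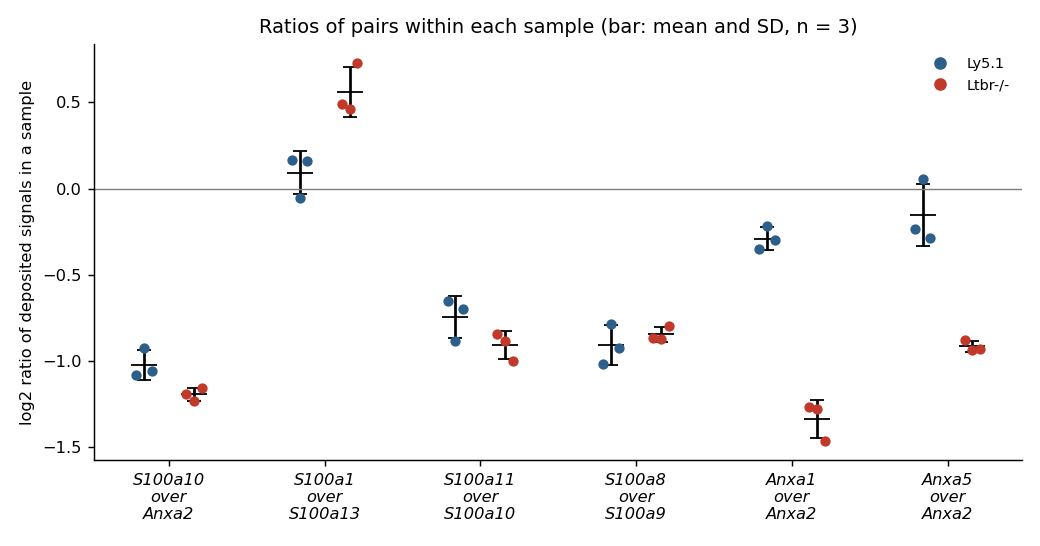
Log2 ratio of the deposited signals of pairs of genes within each sample, for Ly5.1 (blue) and Ltbr-/- (red), with the mean and SD (n = 3). S100a10 over Anxa2, Anxa1 over Anxa2 and Anxa5 over Anxa2 are lower in every Ltbr-/- sample, S100a1 over S100a13 is higher, and S100a11 over S100a10 and S100a8 over S100a9 overlap.

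*S100a1* encodes a calcium sensor best known from heart and skeletal muscle, where it acts on calcium release and uptake. Its signal was 1003, 973 and 1092 in the *Ltbr*-/- samples and 661, 563 and 728 in the Ly5.1 samples. All *Ltbr*-/- values lay above all Ly5.1 values, and the Ly5.1 samples were the more spread. The means were 1023 ± 62.1 (SD, n = 3) and 651 ± 83.1 (SD, n = 3). The change was 0.66 ± 0.10 on the log2 scale (SE; limma adjusted p = 1.56e-06), a fold of 1.58 with a 95% interval from 1.38 to 1.81. Without Ly5.1 replicate 2, the lowest of the 6 samples, it was 0.56 and under the fold of 1.5 with an adjusted p of 0.000116 from limma. With a separate variance for each gene the adjusted p was 0.0777, and under ribosomal protein centring the log2 fold change was −0.22.

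*S100a13*, whose product takes part in the release of proteins that lack a signal peptide, is the neighbor of *S100a1*. It had 714, 707 and 659 in *Ltbr*-/- samples and 588, 583 and 652 in Ly5.1 samples. The lowest *Ltbr*-/- value and the highest Ly5.1 value nearly touched. The log2 fold change of 0.19 (95% interval 0.01 to 0.38) did not pass (adjusted p = 0.168 from limma). The log2 ratio of *S100a1* to *S100a13* was 0.56 ± 0.15 in *Ltbr*-/- and 0.09 ± 0.12 in Ly5.1 cells (SD, n = 3 each, exact permutation p = 0.1, adjusted over the 6 pairs 0.15), without overlap.

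*S100a11* encodes a partner of annexins that is known from the repair of the plasma membrane and from growth control. Its signal was 1139, 1164 and 1147 in the *Ltbr*-/- samples and 859, 774 and 879 in the Ly5.1 samples. The *Ltbr*-/- values were nearly equal to each other and all above the Ly5.1 values. The means were 1150.2 ± 12.6 (SD, n = 3) and 837 ± 55.6 (SD, n = 3). A log2 fold change of 0.46 ± 0.09 (SE; limma adjusted p = 0.000156) resulted, and the fold of 1.38 (95% interval 1.22 to 1.56) was below the threshold of 1.5. The log2 fold change was −0.42 under ribosomal protein centring. A separate variance for each gene gave an adjusted p of 0.0391 (limma). Of the 76-base stretches of its transcripts 37.6% also occur in transcripts of the pseudogenes *Gm12854* and *Gm7665*, so that some reads could be shared, and the value is less certain for that reason.

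*S100a4* and *S100a6*, the metastasin and calcyclin genes, are among the S100 genes most often used as markers of motile or proliferating cells. *S100a4* was 460, 446 and 475 in the *Ltbr*-/- samples and 388, 517 and 456 in the Ly5.1 samples, where it spread on both sides of the *Ltbr*-/- values. Its log2 fold change was 0.03 (95% interval −0.17 to 0.23, adjusted p = 0.885 from limma), so a difference of more than 1.17-fold upward lay outside the interval. Without Ly5.1 replicate 1 it was −0.08. Transcripts of *S100a4* share 44.7% of their 76-base stretches with *Gm42674*, a gene model that overlaps it on the same strand. *S100a6* was 364, 441 and 359 in *Ltbr*-/- samples and 458, 409 and 458 in Ly5.1 samples. Replicate 2 of each genotype was the one that made the groups overlap. Its log2 fold change of −0.19 (95% interval −0.39 to 0.01) did not pass (limma adjusted p = 0.205).

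Among the annexins, *Anxa1* went the other way from *Anxa2*. It encodes annexin A1, a glucocorticoid-induced protein that dampens neutrophil recruitment and is abundant in neutrophils. Its signal was 1938, 2079 and 1856 in the *Ltbr*-/- samples and 2235, 2329 and 2410 in the Ly5.1 samples, with no overlap. The means were 1958 ± 113 (SD, n = 3) and 2325 ± 88.0 (SD, n = 3). It fell with a log2 fold change of −0.25 ± 0.08 (SE; limma adjusted p = 0.0329), with a 95% interval from −0.41 to −0.08. *Anxa1* passed the adjusted p alone, and only narrowly. Its limma adjusted p was 0.0898 and 0.162 without *Ltbr*-/- replicates 1 and 3, and 0.0693 and 0.079 without Ly5.1 replicates 2 and 3. It was 0.0539 without a filter, and 0.118 with a separate variance for each gene.

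*Anxa6*, which encodes the annexin with a doubled core that is tied to cholesterol and calcium handling at membranes, was 2040, 1924 and 2150 in *Ltbr*-/- samples and 1798, 1667 and 1856 in Ly5.1 samples. The values did not overlap, but the log2 fold change of 0.20 (95% interval 0.03 to 0.37) did not pass (adjusted p = 0.104 from limma). *Anxa5* was 2535, 2635 and 2684 in *Ltbr*-/- samples and 2427, 2808 and 2438 in Ly5.1 samples. These overlapped, with a log2 fold change of 0.04 (95% interval −0.13 to 0.20, adjusted p = 0.822 from limma) that was −0.04 under quantile normalization. The log2 ratio of *Anxa5* to *Anxa2* was −0.92 ± 0.03 in *Ltbr*-/- and −0.15 ± 0.18 in Ly5.1 cells (SD, n = 3 each), which restates the change of *Anxa2*. The level of *Anxa5* says nothing of how cells bind the added annexin V reagent, on which the sort was made.

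**Figure D3:**
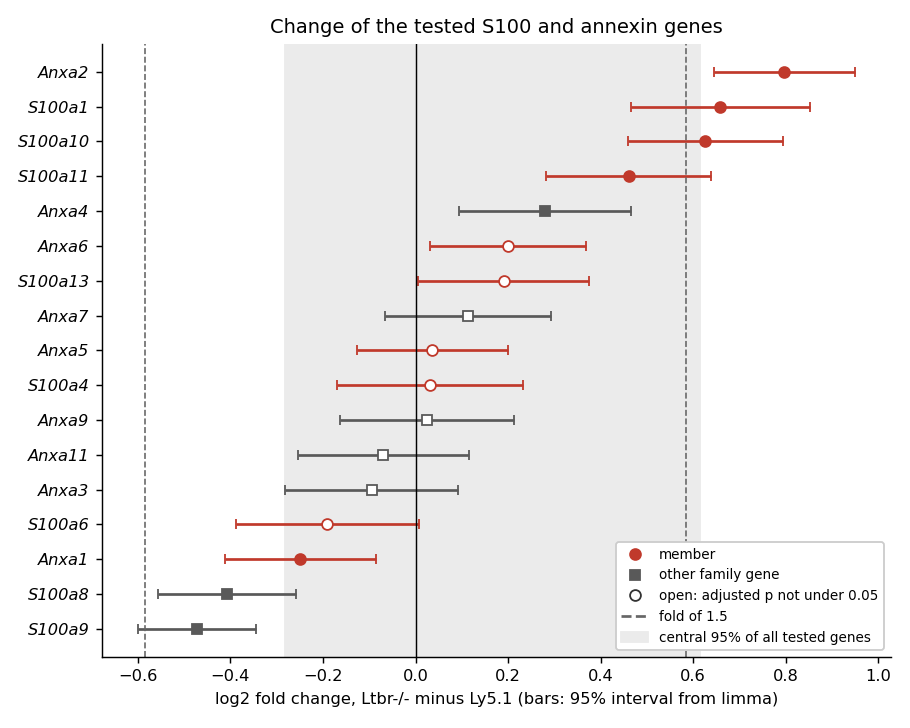
Log2 fold change (Ltbr-/- minus Ly5.1) with its 95% interval from limma for the 10 members (red circles) and the 7 other tested S100 and annexin genes (gray squares), filled where the adjusted p was under 0.05. Dashed lines mark a fold of 1.5 and the gray band the central 95% of all tested genes, from −0.28 to 0.62; Anxa2, S100a1 and S100a10 lie above the band and S100a8 and S100a9 below it, all on the authors' scaling, since ribosomal protein centring moves all 17 below 0.

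The members differed in level before they differed by genotype. Divided by the length of the longest annotated transcript, the order in Ly5.1 cells began with *S100a10* at 2043 ± 66.7 per kb and *S100a11* at 1638 ± 109 per kb (SD, n = 3 each), whose samples did not overlap. Then came *Anxa5* at 1478 per kb, *Anxa1* at 1389 per kb, *Anxa2* at 1246 per kb and *S100a1* at 961 per kb. The samples of *S100a11* and *Anxa5*, and those of *Anxa5* and *Anxa1*, overlapped, so that these neighbors were not told apart, whereas *Anxa1*, *Anxa2* and *S100a1* were separate from one another. *S100a1*, *S100a4* and *S100a13* overlapped in turn with their neighbors, and *Anxa6* and *S100a6* were separate and last, the latter at 564 ± 35.9 per kb (SD, n = 3). In *Ltbr*-/- cells *Anxa2* had moved up to the third place with 2166 ± 106 per kb, next to *S100a11* at 2251 ± 24.8 per kb (SD, n = 3 each), with which it overlapped.

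Of the 18 S100 and annexin genes listed outside the 10, 9 were at 1 in every sample. Over all 26216 names, 9034 had the same value in every sample. The 9 genes of these families at 1 were *S100a3*, *S100a7a*, *S100a16*, *S100b*, *S100g*, *S100z*, *Anxa8*, *Anxa10* and *Anxa13*. *S100a5* (at most 8.59) and *S100a14* (at most 4.06) were too low to be tested. No gene of the remaining 7 was called (limma), and the median log2 fold change was −0.07. At an unadjusted p under 0.05, 1 was higher and 2 lower, against 2060 and 1495 of all 13108 tested genes. *Anxa4* was 908, 841 and 918 in *Ltbr*-/- samples against 664, 752 and 785 in Ly5.1 samples, a difference of 0.28 on the log2 scale (limma adjusted p = 0.0334) that was −0.60 under ribosomal protein centring. Its adjusted p ran from 0.0521 to 0.185 without *Ltbr*-/- replicate 1 or 3 or Ly5.1 replicate 1 or 2, and was 0.0542 without a filter and 0.175 with a separate variance for each gene. *Anxa3*, *Anxa7*, *Anxa9* and *Anxa11* had log2 fold changes from −0.09 to 0.11 with overlapping samples.

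*S100a8* and *S100a9* encode the subunits of calprotectin, the main cytosolic protein of neutrophils, and had the largest falls of both families. *S100a8* was 5506, 5557 and 5739 in *Ltbr*-/- samples and 6583, 7915 and 7867 in Ly5.1 samples, and *S100a9* was 10029, 10167 and 9949 against 13310, 13650 and 14909. Neither gene overlapped between the genotypes, and their log2 fold changes were −0.41 (adjusted p = 6.47e-05) and −0.47 (adjusted p = 2.78e-07 from limma). Under quantile normalization these were −0.65 and −0.83, past a fold of 1.5. With a separate variance for each gene the adjusted p was 0.108 for *S100a8* and 0.0304 for *S100a9* (limma). The log2 ratio of *S100a8* to *S100a9* was −0.84 ± 0.04 and −0.91 ± 0.12 in the genotypes (SD, n = 3 each, exact permutation p = 0.5). Per length *S100a9* was at 26890 per kb in Ly5.1 cells, far above every member of the 10.

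Both genes belong to the list of 8 neutrophil markers, of which 7 were lower in *Ltbr*-/- cells at an adjusted p under 0.05 and *Mmp8* did not pass. The summed signal of the list was 40067 to 40484 in *Ltbr*-/- and 53211 to 57192 in Ly5.1 samples. Without the S100 genes it was 24532 to 24759 and 31647 to 34415, with log2 fold changes from −0.57 for *Camp* to −0.12 for *Mmp8*. *Anxa1* moved in the same direction as this list, and *Anxa2*, *S100a10*, *S100a1* and *S100a11* in the opposite one on the authors' scaling. Of the 6 tested mast cell and basophil markers 2 were higher and 1 lower, and their summed signal was 7506 to 8077 in *Ltbr*-/- and 4115 to 4701 in Ly5.1 samples, most of it *Cma1* in *Ltbr*-/- cells. The part of these cell types in the change of any S100 or annexin gene was not tested, and in sorted bulk RNA fewer cells of a type and less RNA per cell cannot be told apart. By adjusted p alone, which 10.6% of all tested genes passed as higher and 4.18% as lower, 1 of 10 HSC markers was lower (*Ly6a*), 1 of 2 tested B cell markers was higher, 2 of 7 monocyte markers were higher and 1 lower, 1 of 5 erythroid markers was higher, and 1 of 5 megakaryocyte markers was higher and 1 lower. Of the 3 tested T and NK cell markers 0 changed (limma; 0 at an unadjusted p under 0.05), and of *Cd48* and *Flt3* the latter was lower.

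**Figure D4:**
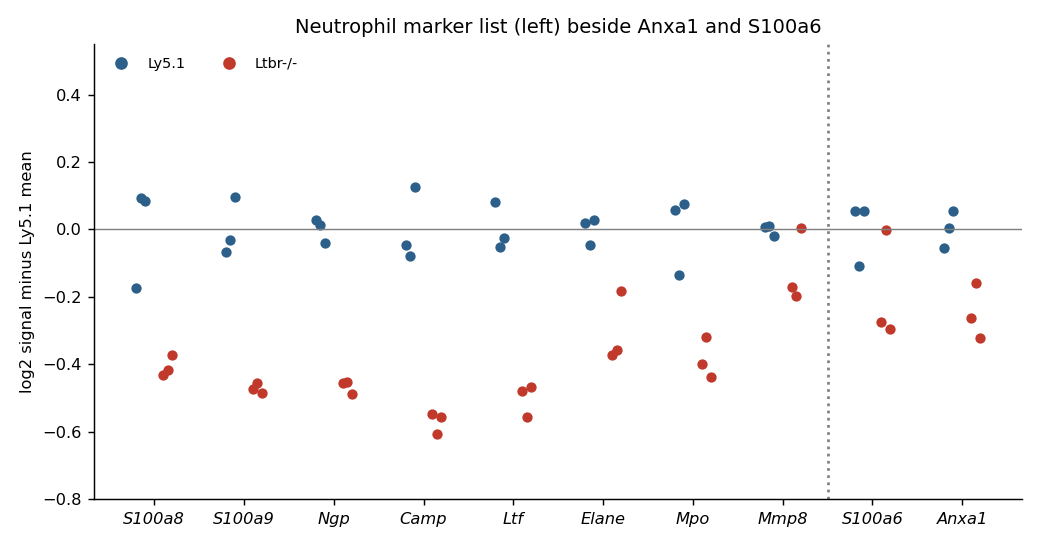
Log2 signal of each sample minus the Ly5.1 mean for the 8 neutrophil markers, among them S100a8 and S100a9, and, right of the dotted line, S100a6 and Anxa1, with Ly5.1 in blue and Ltbr-/- in red. Every Ltbr-/- point of the first 7 markers and of Anxa1 lies below the Ly5.1 points, while Mmp8 and S100a6 overlap.

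On chromosome 3 of GRCm38.p6 the S100a genes lie in a long cluster, from *S100a1* (chr3:90511034-90514330, minus strand) through *S100a13* (chr3:90514233-90524581), *S100a4* (chr3:90603770-90606045) and *S100a6* (chr3:90612894-90614414) to *S100a8* and *S100a9*. *S100a11* (chr3:93520496-93526288) and *S100a10* (chr3:93555117-93564645) follow apart from it, after a gap of 2.41 Mb, these and the members between on the plus strand and *S100a9* on the minus strand. Along this order the changes did not keep 1 direction. *S100a1* at the start of the first group rose, the members behind it did not pass, *S100a8* and *S100a9* fell, and both genes behind the gap rose, all on the authors' scaling, with every one of these below 0 under ribosomal protein centring. *S100a1* and *S100a13* stand head to head on opposite strands and their annotated spans share 98 bases. Whether reads were counted by strand is not given in the sources used here, so reads from this overlap cannot be told apart. The annexins lie singly, *Anxa2* on chr9:69453683-69491792 (plus strand), *Anxa1* on chr19:20373434-20390671, *Anxa6* on chr11:54978953-55033471 and *Anxa5* on chr3:36448923-36475887 (minus strand).

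**Figure D5:**
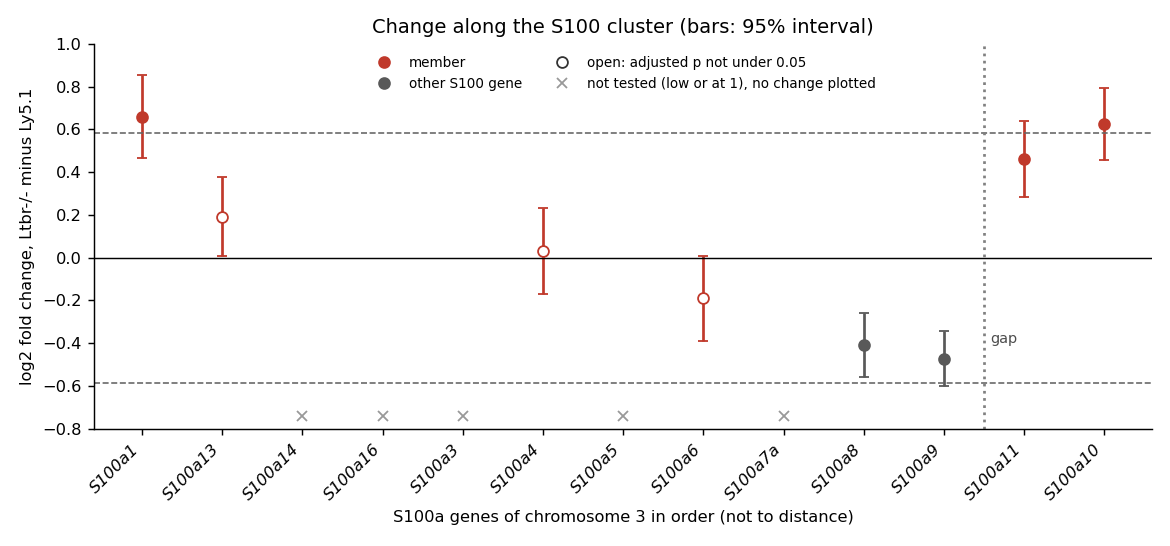
Log2 fold change (Ltbr-/- minus Ly5.1) with its 95% interval for S100a genes of chromosome 3 in their order along it (not to distance), members in red, filled where the adjusted p was under 0.05, with dashed lines at a fold of 1.5. Crosses along the bottom mark genes that were too low to test; on the authors' scaling S100a1, S100a11 and S100a10 are above 0 and S100a8 and S100a9 below, whereas all 8 tested genes are below 0 under ribosomal protein centring.

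Promoter sequence is printed for a pair of members that rose, *Anxa2* and, by adjusted p alone, *S100a11*. Beside it stands a pair whose genotypes overlapped, *S100a4* and *S100a6*, to show the letters before genes that behaved differently. The sequences are from RefSeq on GRCm38.p6, plus strand, 5′ to 3′, and end before the first annotated exon. They are *Anxa2* chr9:69453433-69453619, *S100a11* chr3:93520246-93520487, *S100a4* chr3:90603520-90603769 and *S100a6* chr3:90612644-90612881. Capitals mark matches on either strand to the GC box written as GGGCGG, to the TATA box written as TATAAA, to the AP-1 motif written as TGANTCA, to the E-box written as CACGTG, to the CCAAT box with the letters of its name, or to the NF-kB consensus. The matches do not overlap one another.
Anxa2: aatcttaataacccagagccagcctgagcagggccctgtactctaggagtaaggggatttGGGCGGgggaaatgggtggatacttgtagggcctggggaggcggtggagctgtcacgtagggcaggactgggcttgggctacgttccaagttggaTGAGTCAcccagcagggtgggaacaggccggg
S100a11: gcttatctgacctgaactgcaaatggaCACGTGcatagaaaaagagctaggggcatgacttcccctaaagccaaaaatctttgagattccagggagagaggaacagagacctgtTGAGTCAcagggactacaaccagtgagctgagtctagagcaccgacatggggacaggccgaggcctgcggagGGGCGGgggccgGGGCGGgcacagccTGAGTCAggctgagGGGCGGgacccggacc
S100a4: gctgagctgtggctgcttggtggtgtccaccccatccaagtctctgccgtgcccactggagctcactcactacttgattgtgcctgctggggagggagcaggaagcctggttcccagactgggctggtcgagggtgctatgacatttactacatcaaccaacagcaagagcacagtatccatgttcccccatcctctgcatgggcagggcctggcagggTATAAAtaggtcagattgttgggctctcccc
S100a6: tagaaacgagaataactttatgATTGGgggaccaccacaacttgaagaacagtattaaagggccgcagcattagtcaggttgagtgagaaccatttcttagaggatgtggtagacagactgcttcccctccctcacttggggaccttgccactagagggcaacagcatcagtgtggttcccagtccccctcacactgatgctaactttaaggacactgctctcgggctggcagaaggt

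The *Anxa2* stretch held 1 AP-1 match and that of *S100a11* 2, and the 250 bases before the start of *S100a4*, *S100a6*, *S100a1*, *S100a13*, *Anxa1* and *Anxa5* held 0. Over 32851 mouse promoters of 250 bases, 6.75% held this motif. *S100a1*, which rose, thus had no AP-1 match in its window, nor a match to any other of the motifs above. The promoters of *S100a10*, which also rose, and of *Anxa6* were not available to search. The printed pairs cover only part of the members, so their motifs are no measure of a difference between members that rose and the others. In the full 250 bases *S100a11* and *Anxa2* each held 3 GC boxes, a motif in 32.7% of promoters. A TATA box, in 12.4% of promoters, was in the 250 bases of *Anxa2*, beyond the stretch printed, as well as in those of *S100a4* and *Anxa1*. The NF-kB consensus, found in 7.25% of promoters, was in none of the 8 member promoters searched. These are matches of letters in the sequence, not measured binding, and the signal files hold no measure of it.

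Genes tied to these families by function were counted in the same fit. Of 16 listed partners and targets 13 were tested, and 0 were called in either direction (limma), with a median log2 fold change of −0.02. At an unadjusted p under 0.05, 2 were higher and 2 lower, against 2060 and 1495 of all 13108 tested genes. *Pla2g4a*, which encodes a cytosolic phospholipase of the kind that annexin A1 was first described as inhibiting, was the gene that passed the adjusted p alone, with 1565 ± 123 in *Ltbr*-/- and 2010.3 ± 139 in Ly5.1 cells (SD, n = 3 each) and a difference of −0.36 on the log2 scale (limma adjusted p = 0.00237). *Pdcd6*, a penta-EF-hand protein that binds annexins, was at 0.28 (adjusted p = 0.0533), and *Ahnak*, the giant scaffold that the annexin A2 and S100a10 complex holds at the membrane, was at −0.23 (adjusted p = 0.0893 from limma).

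Of the 22 other EF-hand proteins listed, 0 were called (limma), and the median log2 fold change was 0.04. At an unadjusted p under 0.05, 4 were higher and 3 lower, against 2060 and 1495 of all 13108 tested genes. Without the fold threshold 3 were higher and 2 lower, 13.6% and 9.09% of them, against 10.6% and 4.18% of all tested genes. *Rcn2*, a calcium-binding protein of the endoplasmic reticulum, was lower at −0.39 (adjusted p = 0.00605), *Actn4*, an actin cross-linker, was lower at −0.21 (adjusted p = 0.0461), and *Myl12a*, a myosin light chain, was higher at 0.26 (adjusted p = 0.0220 from limma). *Cib1* and *Myl12b*, named after their values were seen, were the other higher genes, and all 3 were below 0 under ribosomal protein centring. Of 18 other phospholipid binders and membrane repair genes 0 were called (limma), with 2 higher and 0 lower at an unadjusted p under 0.05. *Chmp4b*, a subunit of the ESCRT machinery that closes membrane wounds, was higher at 0.37 (adjusted p = 0.00146) but at −0.51 under ribosomal protein centring, while *Chmp2a* at 0.22 (adjusted p = 0.0802) and *Cpne2* at 0.11 (adjusted p = 0.357 from limma) did not pass.

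The genes whose pattern over the 6 samples was most like a member's were looked up by Pearson correlation of log2 signal, as a description. For *Anxa2* these were *Gpi1*, *Gm9385* and *Tomm7*, with r from 0.9989 to 0.9993, and for *S100a10* they were *Gm8137*, *Cd63* and *Cd55*, with r from 0.9981 to 0.9983. All of these were higher in *Ltbr*-/- cells on the authors' scaling, so that the likeness holds the difference between the genotypes. *S100a10* was at the place 212 among the tested genes by its likeness to *Anxa2* (r = 0.988), and *S100a11* at 259 (r = 0.985). For *S100a6* the most alike were *Hnrnpa3*, *Itpkb* and *Pigm*, and for *S100a4* they were *Tmem126a*, *Srpk1* and *Hook3*, with r from 0.979 to 0.988. After each genotype's mean was removed, r of *Anxa2* over the 6 samples was 0.54 with *S100a10*, 0.74 with *S100a1*, 0.72 with *S100a11* and 0.54 with *Anxa6*. With the other members it ran from −0.33 for *Anxa5* to 0.49 for *S100a6*, which did not rise. Between *S100a10* and *S100a11* it was −0.14, and between *S100a10* and *S100a1* 0.21. So few samples leave these values loose, and no common variation of the members that rose was tested.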

How the data were processed

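Total RNA of 6 pools of sorted cells was sequenced by the authors as stranded mRNA libraries, in single reads of 76 bases, assembled with SeqMan NGen and quantified with ArrayStar. The submitters' processing notes name DESeq2 and the builds GRCm38 and mm10. The authors deposited 1 signal per gene and sample, a regularized log raised as a power of 2, as read from the values; it already holds size factors and shrinkage, which understates the changes of low genes. The files hold no read totals, so depth per sample is unknown from them and precision rests on 3 replicates.

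Linear models with a mean-variance trend were fitted to log2 signal in limma 3.58.1 (R 4.3.3), over the 13108 names in the upper 50% by mean, with Benjamini-Hochberg adjustment over all of them, and tested on simulated data. For repeated names the one with the highest mean was kept. The members and lists were chosen with earlier results of these data known. Named were all members and tested S100 and annexin genes, the 3 genes of each partner list with the smallest p where none was called, and the 3 genes most like *Anxa2*, *S100a10*, *S100a6* and *S100a4*. Lengths and shared 76-base stretches come from GENCODE release M21 and positions from RefSeq. Alternatives were a replicate block, other filters, scalings and variance models, and leaving out each sample. That replicate numbers share no known animal or day left the samples unpaired. Single genes of the lists that are withheld are not reported here.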

Additional observations from a re-analysis of the deposited data

How the results depend on the processing

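Results for the 10 members and all genes were recomputed under 17 other settings, and the counts under a threshold of 2-fold. Centring on ribosomal protein genes, which moved the median gene to −0.89, gave 0 members called higher, 6 called lower, 0 higher and 8 lower by adjusted p alone, and 0 higher and 12037 lower calls over all genes. The log2 fold changes were then −0.084 for *Anxa2*, −0.22 for *S100a1*, −0.25 for *S100a10*, −0.42 for *S100a11*, −0.69 for *S100a13*, −0.68 for *Anxa6*, −0.84 for *Anxa5*, −0.85 for *S100a4* and −0.60 for *Anxa4*. This is the shift of all genes by construction; relative to the median they were 0.81, 0.67, 0.64 and 0.47 for the first 4. At a fold of at least 2, 0 members were called, with 37 higher and 5 lower over all genes. Lower calls over all genes were 28 with quantile normalization and 4 in the upper 25% by mean. *Anxa1* no longer passed the adjusted p without a filter and without moderation of the variance, leaving 0 members lower by adjusted p. The count was 0 to 1 when each sample was left out. Members called higher then numbered 2 to 3, with *S100a1* lost without Ly5.1 replicate 2 and *S100a10* without *Ltbr*-/- replicate 3. *S100a4* ranged from −0.078 to 0.13 when each sample was left out, and *Anxa5* was at −0.040 with quantile normalization.

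Deviations from the group means correlated at 0.03, −0.01 and 0.09 between same-numbered samples, and not every sample correlated best with its own number. The replicate numbers thus gave no clear sign of a pairing, but 3 samples a genotype are too few to exclude one. With the number as a replicate block 3 members were called higher, 0 lower, and 4 and 1 by adjusted p alone, with 356 and 8 over all genes.

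The files give no depth, and 3 samples a group allow no exact permutation p under 0.1. *S100a11*, *S100a4* and *Anxa11* share sequence with other gene models.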
